A study of Mus musculus with 11 samples.

Results

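ASAP, ACAP and ARAP genes encode Arf GAP proteins with ankyrin repeats, *Asap1* among them, and *Arf6* encodes a small GTPase on which several of them act. The 10 genes described here are *Asap1*, *Asap2*, *Asap3*, *Acap1*, *Acap2*, *Acap3*, *Arap1*, *Arap2*, *Arap3* and *Arf6*, taken from a list of names and matched by Entrez ID, out of 27179 genes counted. *Asap1* was followed up by the study, as was *Prox1*. The question put to the expression data was which relatives of *Asap1* were expressed beside it in each mammary population. All 10 genes were found and all 10 passed the filter on low counts.

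RNA-seq had been carried out on 11 libraries of mouse mammary cells. The sorted libraries came from wild type FVB/N virgin females, 8 weeks old by the sample labels. They comprised 3 libraries each of MaSC/basal cells (CD29hi CD24+, enriched for stem cells and also holding myoepithelial cells), LP cells (CD29lo CD24+ CD61+, enriched for luminal progenitors) and ML cells (CD29lo CD24+ CD61-, enriched for mature luminal cells). One further library was made from mammospheres, that is, MaSC/basal cells of the same strain and age kept in non-adherent culture for a week, and 1 from CommaDB, a mammary epithelial line derived from Balb/c mice at mid-pregnancy and labelled CommaD-βGeo. MaSC/basal library 1 is labelled wild type but was submitted under a name with p53 in it, so calls of the 10 genes that were lost without it are given as such.

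Arf GTPases switch between a GTP-bound form, which recruits coat proteins and lipid enzymes to membranes, and a GDP-bound form. Exchange factors load them with GTP, and Arf GAPs trigger hydrolysis of that GTP and so end the signal. Arf6 works at the plasma membrane and on recycling endosomes, where it regulates integrin traffic, actin and adhesion, and Arf GAPs of these families are known for coupling this cycle to focal adhesions, podosomes and phosphoinositides.

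The zinc finger of the Arf GAP domain is a part that all 9 GAPs share. Its coding sequence is shown for the ASAP genes and for the most abundant ACAP and ARAP gene of the LP and ML libraries. The purpose is to show how close the relatives of *Asap1* are over this stretch of the domain. The finger was found as 4 cysteines spaced by 2, 16 and 2 residues, and each of the 9 GAP proteins held exactly 1 match while Arf6 held none. The sequences are from the principal GENCODE transcripts (GRCm38), written 5′ to 3′ on the coding strand, with the 4 cysteine codons in capitals.
Asap1: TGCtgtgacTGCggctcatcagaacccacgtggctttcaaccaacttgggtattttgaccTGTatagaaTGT
Asap2: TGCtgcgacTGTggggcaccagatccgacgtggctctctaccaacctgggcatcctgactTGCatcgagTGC
Asap3: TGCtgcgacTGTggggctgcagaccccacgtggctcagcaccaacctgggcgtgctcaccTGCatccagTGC
Acap2: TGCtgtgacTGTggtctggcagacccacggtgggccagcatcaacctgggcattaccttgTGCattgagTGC
Arap1: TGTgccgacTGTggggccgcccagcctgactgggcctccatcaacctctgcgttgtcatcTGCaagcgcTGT

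Of these 24 residues, the 4 cysteines were required by the search and so are the same in every gene. The *Asap2* product was identical to the *Asap1* product at 21 of the 24 (87.5%) and the *Asap3* product at 19 (79.2%). Identity was 66.7% for *Acap2*, 62.5% for *Acap3* and 54.2% for *Acap1*, and 45.8%, 41.7% and 45.8% for *Arap1*, *Arap2* and *Arap3*. The gene structure divided in the same way. In each of the 3 ASAP genes the 72 bases were split between adjoining exons. In *Asap1* they lay in exon 17 (chr15:64130104-64130125, minus strand) and exon 18 (chr15:64129255-64129304), in *Asap2* in exon 15 (chr12:21229519-21229540, plus strand) and exon 16 (chr12:21230823-21230872), and in *Asap3* in exon 14 (chr4:136238498-136238519, plus strand) and exon 15 (chr4:136238599-136238648). In the 6 ACAP and ARAP genes they lay within 1 exon, which was exon 14 of *Acap2* (chr16:31110907-31110978, minus strand) and exon 9 of *Arap1* (chr7:101390188-101390259, plus strand). Between *Asap1* and *Asap2*, 75.0% of the 72 bases were the same.

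Between 19958838 and 75795034 reads per library were assigned to genes, so that 3 reads, the limit that a count of 0 allows, corresponded to between 0.0399 and 0.160 CPM (reads per 1000000 counted reads). The sorted libraries carried markers of their labels. *Krt5*, a basal keratin, was at 2855 to 3445 CPM in MaSC/basal libraries. It was at 141 CPM in ML library 3 and at most 22.3 CPM in the other luminal libraries. *Elf5*, a luminal progenitor factor, was highest in LP at 346 to 430 CPM, and *Esr1*, the oestrogen receptor, was highest in ML at 153 to 203 CPM. *Aldh1a3*, another luminal progenitor marker, overlapped between LP (132 to 237 CPM) and ML (81.2 to 218 CPM). Levels below are CPM after TMM scaling, and levels of different genes are compared per kilobase of exon (RPKM). Since the samples were bulk RNA, a lower level cannot be separated into fewer expressing cells and less RNA per cell. The labels do not tie libraries to animals, and p-values refer to the spread between libraries.

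*Asap1* and *Asap2* were both expressed at a higher level in MaSC/basal cells than in either luminal population, but the genes parted within the luminal lineage, where *Asap1* was lower in ML than in LP cells and *Asap2* was higher. ASAP1 is a scaffold with a BAR domain, a PH domain and an SH3 domain that binds focal adhesion kinases, and ASAP2 has the same arrangement. *Asap1* was present at 59.2, 55.2 and 66.0 CPM in the 3 MaSC/basal libraries, at 32.6, 32.7 and 29.9 CPM in LP and at 12.1, 17.0 and 13.1 CPM in ML. The 3 groups did not overlap, and the same order of MaSC/basal, LP and ML held among the libraries of batch 1 and among those of batch 2. It was 1.89-fold higher in MaSC/basal than in LP cells (log2 fold change 0.92, SE 0.15, adjusted p = 3.86e-04), 4.26-fold higher than in ML cells (log2 fold change 2.09, SE 0.15, adjusted p = 1.87e-06) and 2.25-fold higher in LP than in ML cells (log2 fold change 1.17, SE 0.15, adjusted p = 9.26e-04). All 3 differences stayed past the threshold in all 17 alternative fits tried.

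*Asap2* was present at 49.7, 57.7 and 54.7 CPM in MaSC/basal, 23.7, 22.6 and 28.3 CPM in LP and 36.4, 37.3 and 47.1 CPM in ML libraries. Here too no groups overlapped, but LP was the lowest. The gene was 2.18-fold higher in MaSC/basal than in LP cells (log2 fold change 1.12, SE 0.15, adjusted p = 1.06e-04), and it was 1.62-fold lower in LP than in ML cells (log2 fold change -0.70, SE 0.15, adjusted p = 0.00634). The difference between MaSC/basal and ML cells was smaller (log2 fold change 0.43, SE 0.14, adjusted p = 0.0274) and missed the threshold in 4 of 17 alternative fits, with adjusted p up to 0.0953 without ML replicate 1.

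*Asap3*, whose product lacks the SH3 domain, gave the least certain values of the ASAP genes. It was at 24.8, 17.3 and 55.8 CPM in MaSC/basal, 16.9, 12.4 and 19.7 CPM in LP and 29.9, 23.8 and 39.6 CPM in ML libraries. MaSC/basal library 3 stood above every other sorted library, and the other MaSC/basal libraries lay among the luminal values. Against LP cells the fit gave a difference of 1.01 on the log2 scale (SE 0.39, adjusted p = 0.0492), which became 0.39 (adjusted p = 0.244) without MaSC/basal replicate 3 and lost the threshold in 9 of 17 alternatives. Without MaSC/basal replicate 1 it was 1.18 and just missed the threshold (adjusted p = 0.05002). Against ML it was 0.07 (SE 0.39, adjusted p = 0.88), and LP and ML differed by -0.93 (SE 0.39, adjusted p = 0.0965), with every LP library below every ML library.

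**Figure D1:**
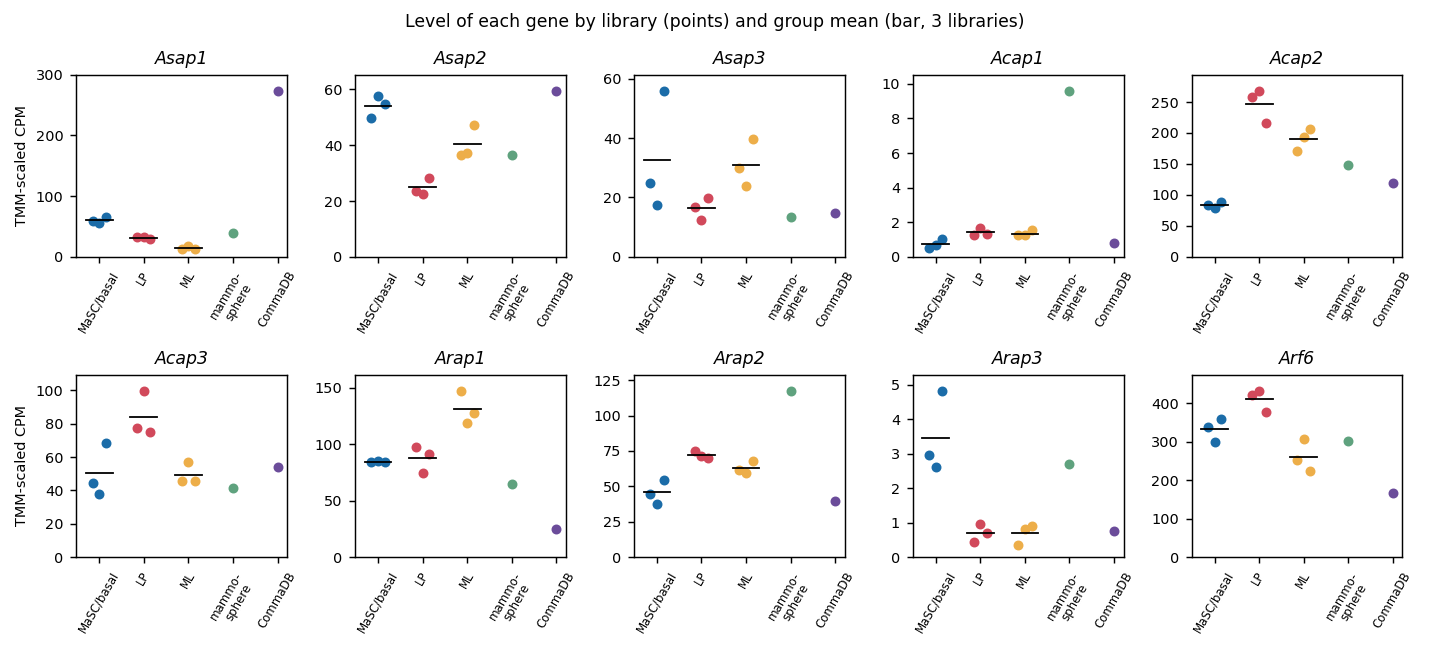
TMM-scaled CPM (vertical axes, each from 0) of the 10 genes in each of the 11 libraries, with a black bar at the mean of each group of 3. *Asap1* fell in steps from 60.1 CPM in MaSC/basal to 31.7 CPM in LP and 14.1 CPM in ML and reached 273 CPM in the CommaDB library, whereas *Acap2* was lowest in MaSC/basal.

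The ACAP genes ran the other way to the ASAP genes in the comparison of MaSC/basal with LP cells, since all 3 were lower in MaSC/basal. ACAP proteins have a BAR domain, a PH domain and ankyrin repeats, and act on Arf6. *Acap2*, which encodes a GAP for Arf6 that also binds Rab35, was at 83.6, 78.6 and 89.0 CPM in MaSC/basal, 257, 268 and 216 CPM in LP and 171, 194 and 206 CPM in ML libraries. MaSC/basal libraries lay far below all 6 luminal libraries, and every LP library lay above every ML library. *Acap2* was 2.95-fold lower in MaSC/basal than in LP cells (log2 fold change -1.56, SE 0.14, adjusted p = 7.01e-06) and 2.28-fold lower than in ML cells (log2 fold change -1.19, SE 0.13, adjusted p = 3.65e-05), and both calls held in all 17 alternative fits. LP and ML differed by 0.37 (SE 0.13, adjusted p = 0.0565), which passed the threshold in 4 of 17 alternatives.

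*Acap3* was highest in LP cells, at 77.6, 99.4 and 74.8 CPM, against 44.6, 37.6 and 68.4 CPM in MaSC/basal and 45.5, 57.0 and 45.8 CPM in ML libraries. The LP libraries did not overlap with the other groups. It was 1.67-fold lower in MaSC/basal than in LP cells (log2 fold change -0.74, SE 0.22, adjusted p = 0.0154) and 1.70-fold higher in LP than in ML cells (log2 fold change 0.76, SE 0.22, adjusted p = 0.0255). These calls were lost in 3 and 4 of 17 alternatives, with adjusted p up to 0.0649 (without MaSC/basal replicate 1) and 0.0909 (without ML replicate 1). MaSC/basal and ML differed by 0.02 (SE 0.22, adjusted p = 0.938).

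*Acap1*, whose product takes part in the recycling of integrins, was at a low level in the sorted libraries, with 25 to 93 reads in each. It was at 0.509, 0.698 and 1.06 CPM in MaSC/basal, 1.23, 1.68 and 1.34 CPM in LP and 1.24, 1.24 and 1.55 CPM in ML libraries. The log2 fold changes were -0.92 against LP (SE 0.31, adjusted p = 0.0283) and -0.82 against ML (SE 0.31, adjusted p = 0.0435), and they lost the threshold in 4 and 9 of 17 alternatives, with adjusted p up to 0.103 and 0.149 without MaSC/basal replicate 1.

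The 3 ARAP genes each had a different pattern. ARAP proteins carry several PH domains beside the Arf GAP domain. *Arap1* was highest in ML cells, at 147, 119 and 127 CPM, against 84.5, 85.0 and 84.1 CPM in MaSC/basal and 97.8, 74.4 and 91.5 CPM in LP libraries. All ML libraries lay above the other sorted libraries, and MaSC/basal lay within the range of LP. *Arap1* was lower than in ML cells by a log2 fold change of -0.63 in MaSC/basal (SE 0.13, adjusted p = 0.00239) and -0.58 in LP cells (SE 0.13, adjusted p = 0.0105), and MaSC/basal and LP differed by -0.06 (SE 0.13, adjusted p = 0.748). Without TMM scaling, the last of these was 0.09.

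*Arap2*, whose product acts on Arf6, was at 44.8, 37.6 and 54.6 CPM in MaSC/basal, 74.9, 71.5 and 69.8 CPM in LP and 61.4, 59.6 and 67.6 CPM in ML libraries. The MaSC/basal libraries were the lowest. The log2 fold change was -0.66 against LP (SE 0.14, adjusted p = 0.00295), a call that held in all 17 alternatives, and -0.46 against ML (SE 0.14, adjusted p = 0.0186), a call that 3 of 17 alternatives lost (adjusted p up to 0.072 without MaSC/basal replicate 2, and 0.0616 without MaSC/basal replicate 1).

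*Arap3*, whose product is activated by phosphoinositide 3-kinase and is known for its role in blood vessel growth, had the largest fold change of the 10 genes between sorted populations and one of the lowest levels. It was at 2.97, 2.61 and 4.80 CPM in MaSC/basal, 0.423, 0.973 and 0.694 CPM in LP and 0.339, 0.824 and 0.911 CPM in ML libraries, from 12 to 255 reads. Every MaSC/basal library lay above every luminal library, by 4.84-fold against LP (log2 fold change 2.28, SE 0.44, adjusted p = 0.00147) and 5.01-fold against ML (log2 fold change 2.32, SE 0.44, adjusted p = 0.00115), and both calls held in all 17 alternatives. Endothelial markers moved with it in part. *Pecam1*, an endothelial adhesion molecule, was at 18.1, 19.2 and 39.5 CPM in MaSC/basal, 4.06 to 10.4 CPM in LP and 2.94 to 17.4 CPM in ML libraries, and both *Pecam1* and *Arap3* were highest in MaSC/basal library 3. The summed level of all 6 endothelial markers was 64.0 to 136 CPM in MaSC/basal, 20.8 to 56.4 CPM in LP and 101 to 139 CPM in ML libraries, where *Vwf* alone gave 91.0 to 107 CPM. None of the 6 was at 0 in a sorted library. In the mammosphere library they summed to 14.5 CPM, below every sorted library. *Arap3* was at 2.71 CPM there, within the range of the MaSC/basal libraries. The part of the endothelial markers in the *Arap3* values was not tested. The 3 pericyte markers summed to 29.7 to 45.0 CPM in MaSC/basal and 2.36 to 9.75 CPM in the luminal libraries, and their part was not tested either.

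*Arf6* itself was expressed at a high and fairly even level. It was at 338, 301 and 360 CPM in MaSC/basal, 422, 431 and 377 CPM in LP and 252, 307 and 225 CPM in ML libraries. LP libraries were the highest, MaSC/basal and ML libraries overlapped, and LP exceeded ML 1.57-fold (log2 fold change 0.65, SE 0.15, adjusted p = 0.0115; 0.0541 without ML replicate 1). MaSC/basal differed from LP by -0.30 (SE 0.15, adjusted p = 0.121) and from ML by 0.35 (SE 0.15, adjusted p = 0.0753). When batch was entered as a replicate block, the difference from LP was -0.39 and passed the threshold (adjusted p = 0.0436).

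**Figure D2:**
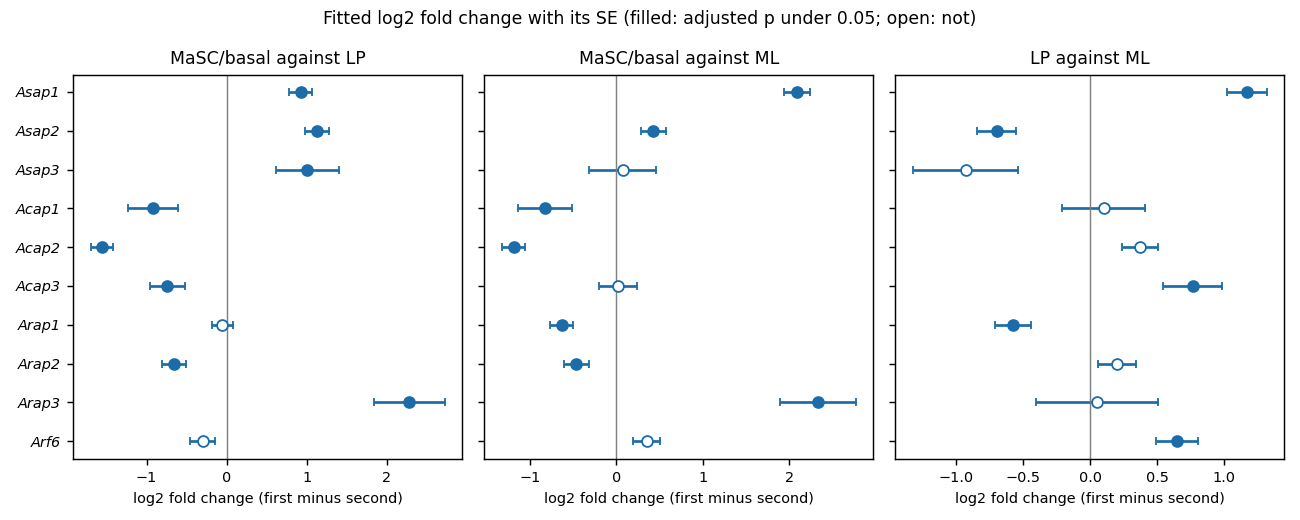
Fitted log2 fold change (horizontal axes, first group minus second) of the 10 genes in the 3 comparisons of sorted cells, with bars of 1 SE, filled where the adjusted p was under 0.05. *Asap1* was past the threshold in all 3 comparisons, from 0.92 to 2.09, and *Acap2* lay on the opposite side of 0 in both comparisons with MaSC/basal cells.

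Of the 10 genes, 4 were higher and 4 lower in MaSC/basal than in LP cells, where 29.4% of the 15422 genes tested were called higher and 28.0% lower. Against ML cells, 3 were higher and 4 lower (28.9% and 29.7% of all genes), and between LP and ML cells 3 were higher and 2 lower in LP (14.3% and 17.5%). Against the mean of LP and ML, 3 were higher and 4 lower in MaSC/basal (31.2% and 30.5%). With about 6 in 10 of all genes called in the comparisons with MaSC/basal cells, these counts say little about the family, and the results lie in which genes moved which way. Without MaSC/basal library 1, 5 genes were called against each of LP and ML, and the direction of every call above was kept.

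Differences between *Asap1* and its relatives were tested on the ratio of their levels in each sorted library, with an exact two-sided permutation test over the 84 ways to choose 3 of 9 libraries, adjusted over the 9 ratios. The ratio of *Asap1* to another gene was higher in MaSC/basal than in luminal cells for 6 of the 9 genes. In the exact test it was, on the log2 scale, 2.88 higher against *Acap2*, 2.39 against *Acap1*, 2.09 against *Arap2*, 1.91 against *Acap3* and 1.48 against *Arf6* (each p = 0.0119, the smallest this test can give, adjusted p = 0.0214), and 1.85 against *Arap1* (p = 0.0238, adjusted p = 0.0357). By the same exact test it was 0.73 higher against *Asap2* (adjusted p = 0.381), 1.12 higher against *Asap3* (adjusted p = 0.254) and -0.77 against *Arap3* (adjusted p = 0.199). A difference from these 3 genes between MaSC/basal and the pooled luminal libraries was thus not shown. Pooling joins LP and ML, between which *Asap1* and *Asap2* moved in opposite directions, so the test does not compare MaSC/basal with either alone. The test rests on all 3 MaSC/basal libraries. Without any 1 of them its smallest p is 0.0357, none of the 9 ratios passed after adjustment, 5 passed unadjusted, and all 9 kept their direction. The test also takes no account of library batch. With labels permuted only within batch, 18 ways remain and the smallest p is 0.0556, which cannot pass, and 6 ratios reached it. All 9 differences had the same direction within batch 1 and within batch 2 as in the pooled libraries, and that against *Acap2* was 2.90 and 2.80 there.

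Scaled by exon length, *Asap1* was among the most abundant of the 9 GAP transcripts in MaSC/basal cells but not in luminal cells. In MaSC/basal cells the highest levels were those of *Arap1* (13.3 ± 0.0704 RPKM, mean ± SD, n = 3), *Asap1* (13.1 ± 1.19 RPKM), *Acap2* (12.9 ± 0.796 RPKM) and *Acap3* (11.6 ± 3.74 RPKM), and neighbours in this order overlapped between libraries. *Asap2* followed at 9.52 ± 0.707 RPKM, and its libraries all lay below those of *Asap1*. In LP cells *Acap2* led at 38.0 ± 4.26 RPKM, followed by *Acap3* (19.5 ± 3.12 RPKM), *Arap1* (13.8 ± 1.90 RPKM) and *Arap2* (9.79 ± 0.354 RPKM), and *Asap1* came next at 6.93 ± 0.348 RPKM, with no overlap between neighbours. In ML cells *Asap1* was seventh at 3.07 ± 0.556 RPKM, below *Asap2* (7.09 ± 1.04 RPKM) and *Asap3* (5.57 ± 1.42 RPKM) in every library.

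*Asap1* made up 18.6%, 18.4% and 16.8% of the summed RPKM of the 9 GAP genes in MaSC/basal libraries, 7.25%, 7.15% and 7.24% in LP and 3.18%, 4.35% and 3.16% in ML. The means were 17.95% in MaSC/basal and 5.39% in luminal libraries, a difference of 12.6 percentage points (exact permutation p = 0.0119, two-sided; 0.0556 with labels permuted within batch, the smallest that design allows). The difference was 13.4 points within batch 1 and 11.9 points within batch 2. Within the ASAP genes, by contrast, its share was 49.5%, 47.6% and 42.3% in MaSC/basal, 49.7%, 53.6% and 43.4% in LP and 18.4%, 25.5% and 15.7% in ML. MaSC/basal and LP libraries overlapped and the ML libraries lay apart, and the difference between MaSC/basal and all luminal libraries was 12.1 percentage points (exact permutation p = 0.357). LP exceeded ML by 29.1 points, a comparison chosen after the values were seen, for which an exact permutation test of 3 against 3 libraries gave p = 0.1, the smallest it can give. In ML cells *Asap2* held the largest share, at 45.1% ± 0.503.

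The summed levels of the 3 subfamilies were ordered differently. The ASAP genes summed to 28.5 ± 4.81 RPKM in MaSC/basal, 14.2 ± 0.849 RPKM in LP and 15.7 ± 2.17 RPKM in ML libraries, with MaSC/basal above all luminal libraries. The ACAP genes summed to 24.8 ± 4.60, 58.1 ± 6.94 and 41.4 ± 3.41 RPKM, in the opposite order for MaSC/basal. The ARAP genes lay closer together, at 20.1 ± 1.29, 23.7 ± 2.04 and 29.3 ± 2.26 RPKM.

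**Figure D3:**
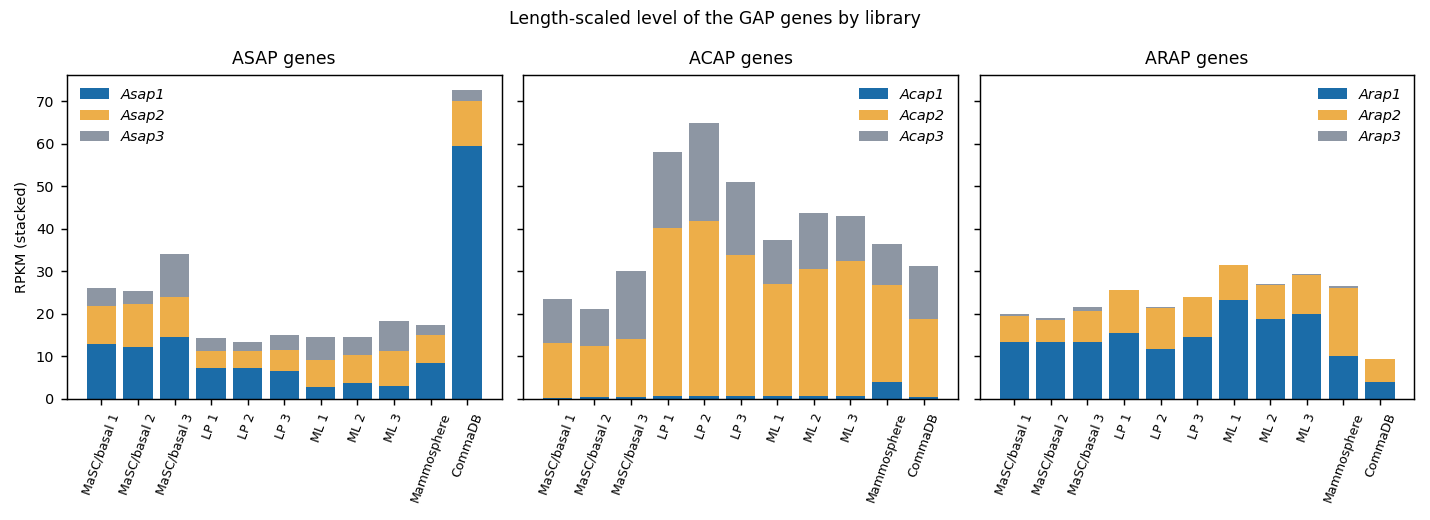
RPKM (vertical axis, from 0) of the ASAP, ACAP and ARAP genes in each library, stacked by gene. The ASAP bars were taller in MaSC/basal (25.3 to 34.0 RPKM) than in LP and ML (13.3 to 18.2 RPKM) and tallest in CommaDB (72.7 RPKM), and the ACAP bars were tallest in LP (51.1 to 65.0 RPKM).

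In the mammosphere library, for which there was 1 library and hence no test, *Asap1* was lower than in the cells of origin, *Acap1* and *Arap2* were above every sorted library and *Arap1* was below every one. The library belongs to batch 1, as does MaSC/basal library 1. *Asap1* was at 38.8 CPM, between the MaSC/basal and the LP libraries (log2 difference from the MaSC/basal mean -0.63). *Asap2* was at 36.6 CPM (log2 difference -0.56) and *Asap3* at 13.3 CPM (log2 difference -1.11), also below all MaSC/basal libraries. *Acap1* was at 9.58 CPM from 425 reads, 12.5-fold above the MaSC/basal mean, and *Arap2* at 117 CPM, 2.59-fold above it. *Arap1* was at 64.5 CPM (log2 difference -0.39), under the lowest sorted value of 74.4 CPM. *Acap2* was at 149 CPM (log2 difference 0.83), above MaSC/basal and below the luminal libraries. Of the 10 genes, 2 were over 2-fold higher and 1 over 2-fold lower, where 19.7% and 20.0% of all genes were. The difference of *Asap3* depended on MaSC/basal library 3, without which it was under 2-fold.

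*Acap1* is known for its expression in blood cells, so the 7 haematopoietic markers are given beside it. Their sum was 13.0 CPM in the mammosphere library against 0.877 to 8.72 CPM in the sorted libraries. Of that sum *Lyz2* made up 11.1 CPM, while *Ptprc*, the pan-leukocyte antigen, was at 0.271 CPM, *Cd79a* at 0.0676 CPM and *Cd3e* at 0.0451 CPM, each within or below the range of the sorted libraries. The fibroblast markers summed to 1725 CPM in this library against 230.5 to 1121 CPM in the sorted ones. *Col1a1* (838 CPM), *Col3a1* (680 CPM), *Pdgfra* (59.3 CPM) and *Lum* (48.5 CPM) were above every sorted library. *Dcn* (98.6 CPM) was below all MaSC/basal libraries. The 3 pericyte markers summed to 206 CPM against 2.36 to 45.0 CPM, with *Pdgfrb* at 151 CPM, *Cspg4* at 54.4 CPM and *Rgs5* at 1.13 CPM, and the part of either list in the mammosphere values was not tested. *Krt5* was at 1013 CPM and *Krt8* at 784 CPM, between the basal and the luminal libraries for both keratins.

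In the CommaDB library *Asap1* was the most abundant of the 9 GAP transcripts. It reached 273 CPM from 8017 reads, 4.55-fold above the MaSC/basal mean (log2 difference 2.18) and above every sorted library, and it made up 52.5% of the summed RPKM of the GAP genes and 82.0% of that of the ASAP genes. *Asap2* was at 59.4 CPM (log2 difference 0.14) and *Asap3* at 14.8 CPM (log2 difference -0.96). *Arap1* was at 25.0 CPM, 3.38-fold below the MaSC/basal mean, and *Arf6* at 166 CPM, 2.00-fold below it, and both were under every sorted library. *Arap3* was at 0.749 CPM from 22 reads, as low as in luminal cells, and the 6 endothelial markers summed to 0.987 CPM. Of the 10 genes, 1 was over 2-fold higher and 2 over 2-fold lower, against 16.9% and 24.8% of all genes. *Arf6* and *Asap3* lay just inside 2-fold, and both passed it without MaSC/basal replicate 2. Markers of the line departed from those of sorted epithelium, with *Krt14* at 460 CPM and *Krt8* at 16.4 CPM, both below MaSC/basal. The luminal markers *Epcam* (88.2 CPM) and *Cdh1* (55.7 CPM) were below every sorted library. The 5 fibroblast markers summed to 2652 CPM against 230.5 to 1121 CPM in the sorted libraries. *Col3a1* (1626 CPM), *Col1a1* (809 CPM) and *Pdgfra* (125 CPM) were above every sorted library. *Lum* (0.681 CPM) was below every sorted library and *Dcn* (91.5 CPM) below MaSC/basal. The part of this list in the CommaDB values was not tested. Of the 3 pericyte markers, *Pdgfrb*, a receptor of mesenchymal cells, was at 341 CPM against 1.76 to 27.5 CPM in sorted cells. The others went the other way, with *Cspg4* at 0.477 CPM and *Rgs5* at 0.885 CPM, below every MaSC/basal library. The library belongs to batch 3, which holds no MaSC/basal library, so the strain, the physiological state, the culture of this line and the batch cannot be told apart.

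**Figure D4:**
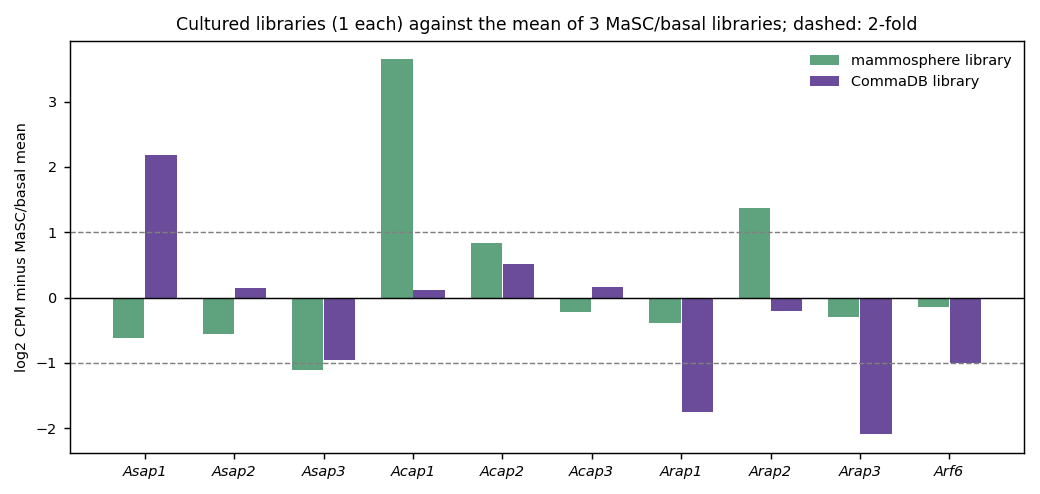
Difference in log2 CPM (vertical axis) of each gene in the mammosphere library and the CommaDB library from the mean of the 3 MaSC/basal libraries, with dashed lines at 2-fold. *Acap1* stood out in mammospheres (3.64) and *Asap1* in CommaDB (2.18), and *Arap1* and *Arap3* were the lowest in CommaDB.

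Over all 11 libraries, the gene whose log2 CPM ran most like that of *Asap1* was *Pcdh9*, a protocadherin (Pearson r = 0.989), and among those next to it were *Tars*, a threonyl-tRNA synthetase (0.979), *Zfp9* (0.977) and *Aida* (0.976), of 15421 genes. These correlations are a description. The libraries form 5 groups, and the CommaDB library was above the rest for each of them (for *Tars*, 268 CPM against 100.4 CPM in MaSC/basal). *Pcdh9* was low in all sorted libraries, at up to 0.611 CPM. Over the 9 sorted libraries the 5 leading genes were others, namely *Sema4g* (r = 0.996), *Pxdc1*, *Plcl1*, *Pde7a* and *Pls3*. Among the relatives of *Asap1*, the closest was *Asap2* over 11 libraries (r = 0.467) and *Arap3* over the 9 sorted libraries (r = 0.790), while *Arap1* ran opposite to it (r = -0.92 and -0.88).

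The remaining genes of the Arf cycle were read from lists, each to be set beside the 31.2% of all genes tested that were called higher and the 30.5% called lower in the same comparison. Among 14 other Arf GAP genes, 3 were higher and 6 lower in MaSC/basal cells than in the mean of LP and ML, with a median log2 fold change of -0.38 beside -0.013 for all genes tested. *Agap2*, which links Arf GAP activity to phosphoinositide 3-kinase, was 6.60-fold higher (2.46 against 0.361 CPM, adjusted p = 3.19e-05) and *Smap1*, a GAP for Arf6 in endocytosis, 1.55-fold higher (adjusted p = 0.00142). *Adap1* was 13.2-fold lower (0.477 against 7.78 CPM, adjusted p = 1.25e-06) and *Agap1* 2.10-fold lower (adjusted p = 7.43e-06).

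Of 13 exchange factors tested (*Iqsec3* did not pass the filter), 2 were higher and 4 lower, with a median of -0.18. *Psd2*, an exchange factor for Arf6, had the largest difference of any gene on the Arf cycle lists. Its level was 39.9, 39.1 and 37.3 CPM in MaSC/basal libraries against 0.273 to 0.855 CPM in luminal ones (83.9-fold, log2 fold change 6.39, SE 0.18, adjusted p = 1.85e-08). It was at 1.17 CPM in the mammosphere and at 0.0681 CPM in the CommaDB library, which is below the limit of 3 reads there. *Iqsec2* was 1.28-fold higher (adjusted p = 0.041). *Psd4*, of the same family as *Psd2*, was 3.52-fold lower (adjusted p = 4.74e-05) and *Arfgef2*, an exchange factor of the Golgi and endosomes, 2.66-fold lower (adjusted p = 8.80e-05).

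Of 5 other Arf GTPases, 2 were lower and 3 were not called. The lower ones were *Arf1* (358 against 479 CPM, log2 fold change -0.42, adjusted p = 0.00689) and *Arf3* (244 against 332 CPM, log2 fold change -0.44, adjusted p = 0.01). Of 10 tested binding partners of ASAP1, 3 were higher and 3 lower, with a median of -0.097, a share called close to that over all genes. *Sh3kbp1*, an adaptor of receptor endocytosis also known as CIN85, was 2.65-fold higher (adjusted p = 2.41e-04) and *Crkl*, an SH2 and SH3 adaptor, 1.40-fold higher (adjusted p = 0.00569). The focal adhesion kinase gene *Ptk2* was 1.35-fold lower (adjusted p = 0.00364), and *Ptk2b*, which encodes the related kinase Pyk2, was 15.6-fold lower, at 2.97, 5.66 and 4.71 CPM in MaSC/basal against 54.5 to 90.2 CPM in luminal libraries (adjusted p = 1.92e-07). *Amph* did not pass the filter.

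All 5 lipid enzymes that act downstream of Arf6 were called, 1 higher and 4 lower, with a median of -1.16, where 31.2% and 30.5% of all genes were called. *Pld1*, a phospholipase D, was 2.09-fold higher (50.4 against 24.2 CPM, adjusted p = 3.84e-05), and *Pld2*, the other phospholipase D of the list, was 3.71-fold lower (23.2 against 89.4 CPM, adjusted p = 1.60e-06). *Pip5k1b*, which makes phosphatidylinositol 4,5-bisphosphate, was 26.4-fold lower, at 0.611, 0.718 and 0.415 CPM in MaSC/basal against 11.8 to 19.5 CPM in luminal libraries (adjusted p = 1.23e-07). The lists hold genes of several functions, and the counts describe these libraries only.

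**Figure D5:**
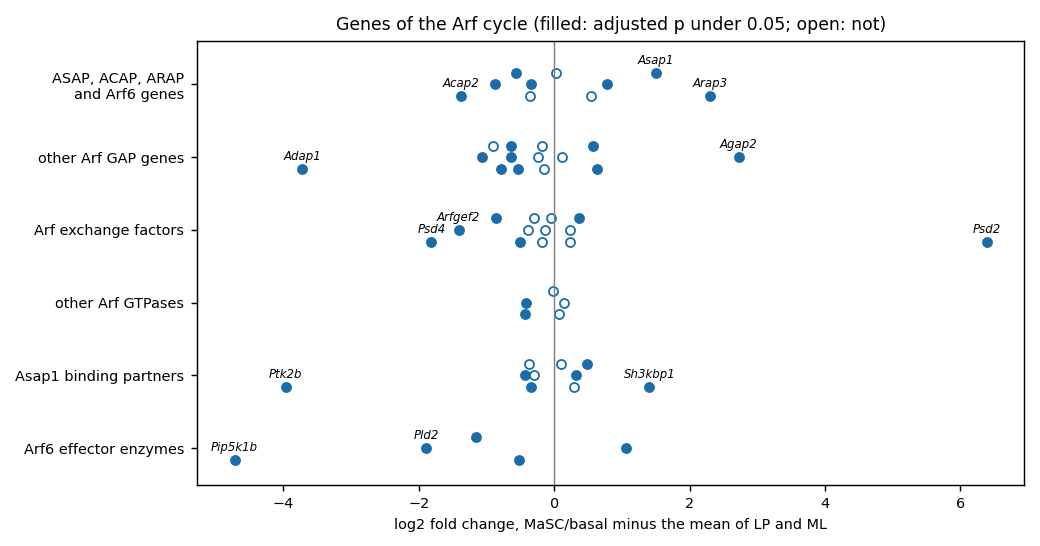
Log2 fold change between MaSC/basal cells and the mean of LP and ML (horizontal axis) of the 10 genes and of 5 lists of the Arf cycle, filled where the adjusted p was under 0.05, with names for genes beyond 1.3. *Psd2* lay farthest to the right (6.39) and *Pip5k1b* farthest to the left (-4.72).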

How the data were processed

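Single-end reads had been aligned by the authors to mm10 (GRCm38) with Rsubread and assigned to Entrez genes with featureCounts, and the deposited values are unnormalized counts of 27179 genes per library, with an exon length for each gene. Treatment of reads shared by similar genes and of strand is not given in the sources used here, so reads of paralogs may have been lost or split. Symbols came from RefSeq (GRCm38.p6) and zinc finger sequences from GENCODE transcripts. Promoters were not used.

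edgeR 4.0.16 in R 4.3.3 was used on the counts. Genes over 0.5 CPM in at least 3 libraries (15422) were retained, with TMM scaling and a quasi-likelihood fit of 1 mean per sample type to all 11 libraries, and p-values were adjusted by Benjamini-Hochberg over all genes retained, with calls under 0.05. The SE is the log2 fold change divided by the root of the F statistic. RPKM is scaled CPM per kilobase of exon, and a prior count of 2 was added for log2 CPM. The code was tested on simulated data. The genes and lists were chosen with earlier results of these data known. Beyond the 10 genes, the text names, per list, up to 2 genes in each direction with the largest change past the threshold against the mean of LP and ML, the 5 genes most correlated with *Asap1* (the values of 1 of them are not reported here), and cell type markers beside a result.

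The labels give library batches 1 to 3. Batch 1 had another version of the library kit, MaSC/basal replicates 2 and 3 share batch 2, and batch 3 holds no MaSC/basal library. Deviations from group means correlated between libraries of the same batch (median r = 0.240 over 9 pairs, from -0.12 to 0.526) more than between batches (median r = -0.10 over 18 pairs), and a fit with batch as a replicate block was run. Other alternatives were DESeq2 1.42.0, limma voom (limma 3.58.1), other scalings, filters and prior counts, the 9 sorted libraries alone, leaving out each sorted library and, added after seeing the data, permutation of labels within batch. Counting floors of 3 reads cover counting error only.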

Additional observations from a re-analysis of the deposited data

How the results depend on the processing

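The calls of *Asap1* in all 3 comparisons, *Asap2* against LP and between LP and ML, *Acap2*, *Arap2* against LP, *Arap3* and *Arap1* against ML and between LP and ML held in all 17 alternative fits. Leaving out 1 library gave between 5 and 8 genes called for MaSC/basal against LP (5 without MaSC/basal replicate 1 or LP replicate 2), between 4 and 7 against ML (4 without MaSC/basal replicate 2), and between 3 and 6 for LP against ML (3 without ML replicate 1), in fits with fewer samples. Genes over 2-fold in CommaDB numbered 3 to 5 (5 without MaSC/basal replicate 2), and ratios past the threshold 0 to 5 (0 without any 1 MaSC/basal library, where 5 passed unadjusted). With labels permuted within batch, chosen after seeing the data, 0 ratios passed and the share of *Asap1* among the 9 GAP genes, 12.6 points, had an exact permutation p = 0.0556, the smallest those 18 ways allow. With batch as a replicate block, 9, 7, 5 and 6 genes were called in the 4 comparisons against 8, 7, 5 and 7, *Arf6* against LP being gained and *Arap1* against the mean of LP and ML lost. Without TMM scaling, the median of all genes moved to 0.14 for MaSC/basal against LP and -0.19 for LP against ML. Directions turned only for differences that were not called, and the cause was not tested. These were *Arap1* against LP (0.092 without TMM scaling, -0.18 to 0.011 on leaving out a library), *Asap3* against ML (-0.029 by voom, -0.54 without MaSC/basal replicate 3 to 0.40 without MaSC/basal replicate 2), *Acap3* against ML (-0.0057 without TMM scaling, -0.025 by voom, -0.088 with the replicate block, -0.25 without MaSC/basal replicate 3 to 0.22 without MaSC/basal replicate 2), and, between LP and ML, *Acap1* (-0.076 without TMM scaling, -0.032 to 0.22 on leaving out a library) and *Arap3* (-0.12 without TMM scaling, -0.30 without LP replicate 2 to 0.33 without LP replicate 1). Depth limits *Acap1* and *Arap3*, which rest on 12 to 255 reads per sorted library.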
